A study of Homo sapiens with 32 samples.

Results

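HEK293, a human cell line derived from embryonic kidney, was compared after a 5 min incubation with 4-thiouracil, the shortest in the series, and at 0 min. The comparison takes in 16 of the 32 libraries of the series, those labelled 0 or 5 min, chosen by the incubation time in the labels. Each time has 2 cultures, numbered as biological replicates by the submitters. From every culture came 2 cDNA preparations of 2 libraries, whose counts were summed, and n is 2 cultures at each time. The labels name polyadenylated RNA and say neither what the 0 min cells received nor whether tagged RNA was purified before cDNA synthesis. The question was which kinds of RNA took a larger or a smaller part of the counts after 5 min.

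4-Thiouracil is a uracil with sulphur in place of an oxygen, and RNA into which a cell builds it carries sulphur that chemistry can reach. How far it entered the RNA of these cells cannot be read from the counts. Transient transcriptome sequencing, the published method that the growth protocol cites, uses a short labelling pulse to look at RNA that is being made. The polyadenylated RNA of a growing cell holds many stable messages of short housekeeping genes, which collect over many hours. RNA still being transcribed reflects the rate of synthesis instead, and it includes introns and the unfinished transcripts of long genes.

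The 0 min cultures held 1217384 and 1022116 counts and the 5 min cultures 776871 and 1298475. Paired libraries of the same cDNA lay closer together than the sampling noise of counts and added no separate replicate (chi-square over degrees of freedom of 0.327 to 0.594, 8 pairs). The same measure was 3.12 and 3.26 between cultures of 1 time and 38.7 to 46.6 between cultures of different times. All 7 HEK293 markers in the table (VIM with neurofilament and renal lineage genes) had counts, 274 to 462 summed over the list in a culture. VIM alone gave 414 and 280 of the 462 and 304 counts at 0 min. At 5 min it gave 219 and 300 of 274 and 420, so that the sums say little on the other members. Markers of immune cells, red blood cells, fibroblasts and endothelium summed to 0 to 4 counts per list and culture, and all 7 endothelial markers were at 0. The labels say nothing on whether cultures were grown apart, so p-values measure the spread between these cultures, which may be partly technical. The tagmentation number is shared by libraries from the same cDNA at 0 min but not at 5 min, so that this layout cannot be told apart from time.

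The counted RNA was spread over many more genes after 5 min. At 0 min, 307 genes held the upper 50% of the counts in culture 1 and 259 in culture 2. At 5 min, 935 and 994 genes were needed. The 10 most abundant genes held 7.23% and 8.08% of the counts at 0 min and 4.10% and 3.85% at 5 min, and the 100 most abundant held 31.3% and 33.7% against 18.3% and 16.4%. Thinned to the same 776871 counts, the cultures showed 11909 and 11607 genes with a count at 0 min and 12753 and 13622 at 5 min. On each of these measures the cultures of the 2 times did not overlap.

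Of 10439 genes tested, 2998 rose (28.7%) and 2712 fell (26%) at an adjusted p under 0.05 in edgeR's quasi-likelihood test. In either direction 54.7% passed it, and 4729 genes did not. The median log2 fold change was 1.92 among the genes that rose and -1.52 among those that fell. Genes that rose held 6.96% and 5.98% of the counts at 0 min and 35.6% and 37.4% at 5 min, while genes that fell held 81.4% and 83.4% and then 46.0% and 44.6%. These shares describe the genes the test picked and carry no test of their own. In 73.7% of the genes tested the cultures of the 2 times did not overlap. Fold changes are log2 values, 5 min over 0 min, on the TMM scale, which sets the bulk of genes level, and say how a gene moved against the others, with nothing on molecules per cell. With total counts as the scale the median of all genes moved from 0.10 to 0.83, and 4461 genes (42.7%) rose and 1448 (13.9%) fell. Levels of single genes are CPM on the TMM scale (TMM CPM), not divided by transcript length, so that genes are not compared with each other by level.

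Taken by class of RNA, messages of cytosolic ribosomal proteins and of histones lost share, and long noncoding and clone-named RNAs gained it. Cytosolic ribosomal protein mRNAs held 18.3% and 20.4% of the counts at 0 min and 11.5% and 9.98% at 5 min, a loss of 8.62 percentage points, and the 2 times did not overlap. Of 85 such genes tested 81 fell and 0 rose, beside 26% and 28.7% of all genes. With total counts as the scale 58 fell and 2 rose, beside 13.9% and 42.7% of all genes. The median of these genes moved from -1.47 to -0.73. All other protein-coding genes together held 77.6% and 75.3% and then 83.6% and 85.4%, with 2771 rising and 2535 falling of 9581. Their gain of 8.07 percentage points was the largest of the classes, and the 2 times did not overlap. Their median of 0.08 lay near the 0.10 of all genes tested. They make up most of those 10439 genes, so the 2 medians could hardly differ.

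Long noncoding RNAs, by their type in GENCODE 29, held 0.880% and 0.801% of the counts at 0 min and 1.62% and 1.53% at 5 min, a 1.88-fold higher mean share. The most abundant entry, MALAT1, fell. The next, the RNA that gained the largest share among genes past the test without overlap between the times, rose. Without MALAT1 the shares were 0.526% and 0.493% against 1.36% and 1.32%, a 2.64-fold higher mean. Without both they were 0.396% and 0.368% against 0.956% and 0.983%, a 2.54-fold higher mean. Of 215 long noncoding RNAs tested 70 rose (32.6%) and 21 fell (9.77%), with a median of 0.72. The part that rose is near the 28.7% of all genes tested, and the part that fell is below their 26%. Genes that carry only the name of a genomic clone, whose type could not be matched, went from 0.408% and 0.383% to 0.997% and 1.05%. Of 432 such genes tested 141 rose (32.6%) and 30 fell (6.94%), which lie in the same way beside all genes. Neither class overlapped between the times.

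Mitochondrially encoded mRNAs, made in the organelle by its own polymerase, held 1.80% and 1.87% of the counts at 0 min and 1.75% and 1.46% at 5 min. The 2 times did not overlap, and the change of -0.231 percentage points was -0.377 without culture 1 at 5 min and -0.0857 without culture 2 at 5 min. Of 11 tested 6 fell and 0 rose, beside 26% and 28.7% of all genes. On the scale of total counts their median of -0.88 became -0.14, with 3 falling and 4 rising. MT-ND3, a subunit of complex I, fell by 1.36 (SE 0.21, adjusted p = 8.65e-07 in edgeR). MT-ND4, a subunit of the same complex, had TMM CPM of 1711 and 2275 at 0 min against 2330 and 1889 at 5 min, which overlap. Its share of the counts, unlike that of its class, rose without overlap, from 0.116% and 0.144% to 0.254% and 0.206%. Annotated pseudogenes held 0.0265% and 0.0255% and then 0.0339% and 0.0339%, with 17 tested. Small noncoding RNAs of the annotation held at most 0.0181% of the counts in any culture and overlapped between the times. This class lacks RMRP, described below, whose type could not be matched. A list of small noncoding RNAs by name, with RMRP, went from 0.0225% and 0.0192% to 0.0129% and 0.00454%, without overlap.

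**Figure D1:**
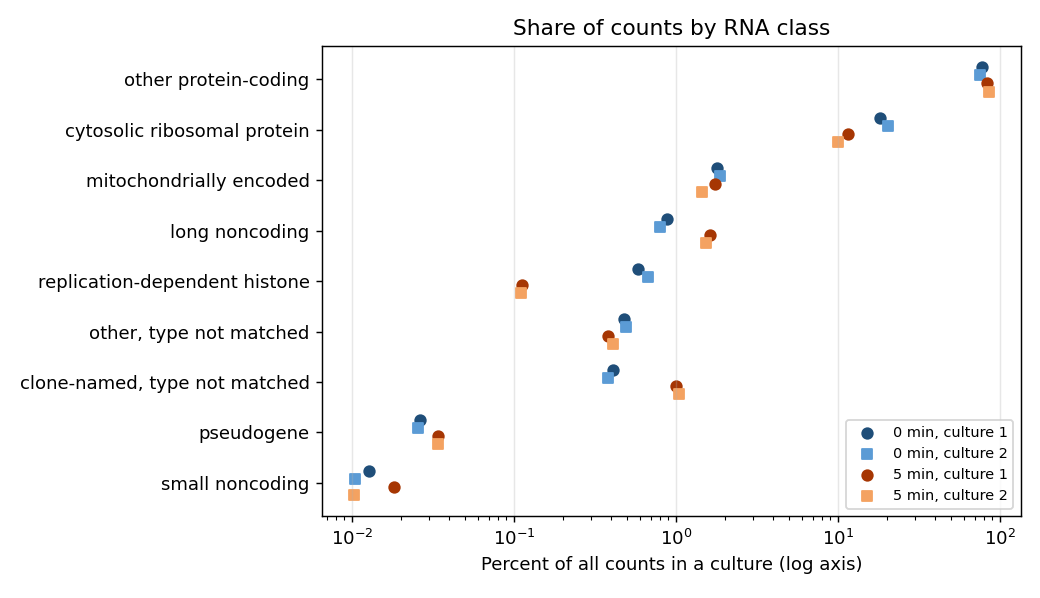
Percent of all counts held by each RNA class (log axis) in each of the 4 cultures, with circles for culture 1 and squares for culture 2 of a time. Replication-dependent histones drop from 0.580% and 0.672% at 0 min to 0.112% and 0.110% at 5 min, while long noncoding and clone-named genes lie higher in both 5 min cultures.

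Replication-dependent histones had the lowest median of the RNA classes. These genes encode the core and linker histones that package new DNA during S phase, have no introns, and make messages that end in a stem-loop, mostly without a poly(A) tail. As a class they held 0.580% and 0.672% of the counts at 0 min and 0.112% and 0.110% at 5 min, a 5.65-fold lower mean share. Most of this came from HIST1H4C, a histone H4 gene and the most abundant of them. Without it the shares were 0.110% and 0.124% against 0.0552% and 0.0493%, a 2.24-fold lower mean that also did not overlap. Of 25 tested 14 fell and 2 rose, beside 26% and 28.7% of all genes, with a median of -2.24, and the other 9 did not pass. With total counts as the scale 11 fell and 5 rose, with a median of -1.50. HIST1H4C had TMM CPM of 6928 and 8640 at 0 min and 518 and 556 at 5 min. The times lie far apart, and the fall was 3.86 (SE 0.22, adjusted p = 4.80e-15 in edgeR). Histone genes are near-identical copies of each other, so that the counting can split reads among them and single members are uncertain.

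Because the histone class had the lowest median, the bases before the start are shown for 3 of the genes that fell, picked after their values were seen. HIST1H2BK, an H2B gene, fell by 2.36, HIST1H1C, a linker histone gene, by 2.88, and HIST1H2AM, an H2A gene, by 2.46. The windows are the 150 bases before the start in RefSeq (GRCh38.p14, all on the minus strand of chromosome 6). They lie at chr6:27146859-27147008, chr6:26056471-26056620 and chr6:27893186-27893335, in the same order. Capitals mark CCAAT on either strand and TATAAA on either strand.
HIST1H2BK: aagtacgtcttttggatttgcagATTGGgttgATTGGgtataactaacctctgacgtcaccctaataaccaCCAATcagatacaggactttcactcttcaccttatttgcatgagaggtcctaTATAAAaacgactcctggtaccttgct
HIST1H1C: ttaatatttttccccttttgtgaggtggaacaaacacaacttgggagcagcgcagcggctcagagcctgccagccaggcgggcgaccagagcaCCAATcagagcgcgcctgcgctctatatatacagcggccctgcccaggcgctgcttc
HIST1H2AM: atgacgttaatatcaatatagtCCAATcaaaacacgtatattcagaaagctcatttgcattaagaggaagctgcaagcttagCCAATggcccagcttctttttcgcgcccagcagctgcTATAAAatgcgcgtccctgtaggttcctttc
HIST1H2BK and HIST1H2AM each hold 1 TATAAA in this window, and all 3 hold CCAAT, with 3 matches in HIST1H2BK, 1 in HIST1H1C and 2 in HIST1H2AM. Over the 300-base entries of the table, which run from 250 bases before the start to 50 after, TATAAA was found in 57.1% of the 21 histone genes with an entry and CCAAT in 85.7%. Among all 8118 protein-coding genes tested with an entry the shares were 5.14% and 38.4%, and 12% and 35.7% of all 27305 entries of the table held them. A match is a description of the letters and not a sign of binding, and the motifs were chosen after values had been seen.

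The 10 genes that gave up the largest part of the counts were RPL8, RPLP0, RPL35, HIST1H4C, GNB2L1, RPL29, RPS23, NPM1, RPS6 and TPT1. This ranking, like that of the gains below, took genes past the test whose cultures did not overlap between the times. RPL8, of the large ribosomal subunit, had TMM CPM of 17365 and 21272 at 0 min against 4872 and 5156 at 5 min, and RPLP0, of the ribosomal stalk, 12757 and 14942 against 2803 and 3005. Both times are separated by more than the spread between cultures, with a fall of 1.95 (SE 0.22) for RPL8 and 2.25 (SE 0.21, adjusted p = 4.54e-11 in edgeR) for RPLP0. GNB2L1, whose product RACK1 is a scaffold on the small subunit, fell by 2.16, and RPS6, a phosphorylated protein of that subunit, by 2.32.

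Outside the ribosome, NPM1, the nucleolar chaperone nucleophosmin, had TMM CPM of 7793 and 8857 at 0 min and 1577 and 1725 at 5 min, and fell by 2.33 (SE 0.21, adjusted p = 2.88e-11 in edgeR). TPT1, the translationally controlled tumour protein, fell by 2.61, although its 5 min cultures differed from each other, at 1555 and 843 TMM CPM. RPL3, of the large subunit, had the lowest value of the ribosomal list at -2.45, and RPL7, of the same subunit, the highest at 0.47, which did not pass the test (adjusted p = 0.0675 in edgeR). Ribosomal protein genes have many processed copies in the genome, so that the counting can divide their reads.

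The largest gain among genes past the test without overlap, 0.245 percentage points of the counts, was that of a long noncoding RNA. It has a span of 32.1 kb and lay ahead of TLE4, with 0.121 points. The other 9 of the 10 largest gains in this ranking were those of TLE4, EIF4G3, KANSL1, ANKRD17, ROBO1, RBM26, KLF12, MYCBP2 and ARID1B. Genes left out of the ranking can exceed some of these. MT-ND4, which spans 1.38 kb and did not pass the test, gained 0.0998 points, against 0.0986 for KANSL1. TLE4, a corepressor of the Groucho family, had TMM CPM of 226 and 267 at 0 min and 1355 and 1154 at 5 min, a rise of 2.35 (SE 0.20, adjusted p = 6.37e-12 in edgeR). ARID1B, a DNA-binding subunit of the BAF remodelling complex, went from 76.1 and 60.2 to 817 and 836, a rise of 3.58 (SE 0.21, adjusted p = 1.50e-14 in edgeR). Neither gene's cultures overlapped between the times.

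KLF12, a zinc finger repressor, went from 108 and 71.1 TMM CPM to 849 and 848, and ROBO1, the receptor for Slit guidance proteins, from 201 and 116 to 942 and 916. EIF4G3, a scaffold of the cap-binding complex, rose by 3.45 (SE 0.24), the 0 min cultures lying at 119.7 and 55.6 and the 5 min cultures at 880.4 and 1076. MYCBP2, a large ubiquitin ligase, rose by 3.00, ANKRD17, an ankyrin repeat protein, by 3.32, and KANSL1, a subunit of a histone acetyltransferase complex, by 2.67. In GENCODE 29 these 9 protein-coding genes span from 94.7 kb, in RBM26, to 1171 kb, in ROBO1. The noncoding RNA that gained most, at 32.1 kb, lay nearer to the 10 genes that lost most, which span 0.435 kb in HIST1H4C to 24 kb in NPM1.

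**Figure D2:**
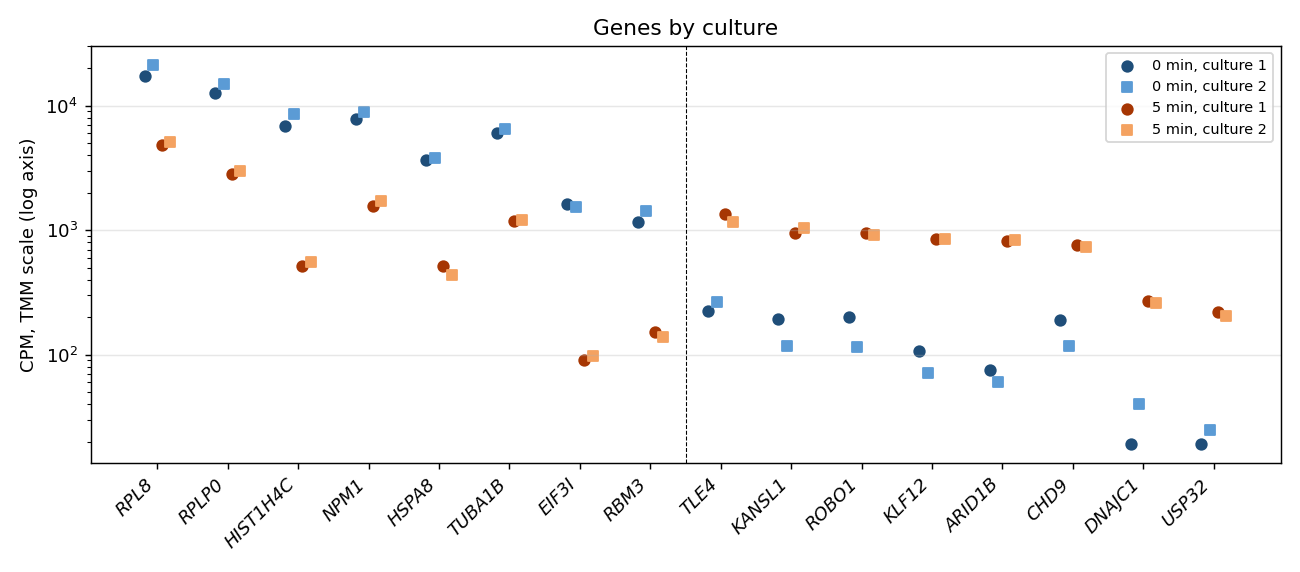
TMM CPM (log axis) in each of the 4 cultures for 8 genes that fell (left of the dashed line) and 8 that rose. No gene shown overlaps between the times, and the cultures of a time lie close together next to the distance between times, least so at 0 min in the low genes such as DNAJC1, at 19.3 and 40.2.

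Genomic span, the distance from the first to the last annotated base of a gene, ordered the change. Protein-coding genes under 5 kb held 18.5% and 19.8% of the counts at 0 min and 10.5% and 9.76% at 5 min, and those of 5 to 20 kb went from 37.4% and 38.2% to 22.4% and 21.7%. Genes of 20 to 50 kb held 23.6% and 22.9% and then 22% and 22%. Genes of 50 to 100 kb went from 9.73% and 8.94% to 16% and 16.6%. The gain was 3.06-fold for 100 to 200 kb, from 4.75% and 4.43% to 13.7% and 14.4%, and 4.77-fold over 200 kb, from 2.39% and 2.15% to 10.6% and 11.1%. The cultures of the 2 times did not overlap in any of the 6 classes.

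Of all genes tested 28.7% rose and 26% fell. Counted by gene, 8 of 645 rose and 360 fell under 5 kb, and 149 rose and 1100 fell of 2354 at 5 to 20 kb. Over 200 kb 593 of 857 rose and 30 fell, and at 100 to 200 kb 765 rose and 81 fell of 1314. The median log2 fold change went from -1.18 and -0.96 in the 2 shortest classes through -0.16, 0.63 and 1.33 to 1.88 over 200 kb, beside 0.10 for all genes. The median of the 20 to 50 kb class turned from -0.16 to 0.57 with total counts as the scale, while the other 5 kept their sign, at -0.45 and -0.23 in the 2 shortest and 2.61 in the longest. Across 9690 protein-coding genes the log2 fold change went with span at a Spearman correlation of 0.558, and between 0.502 and 0.541 in the 4 pairs of single cultures. Genes are not independent replicates and share the same libraries, so no p is given.

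**Figure D3:**
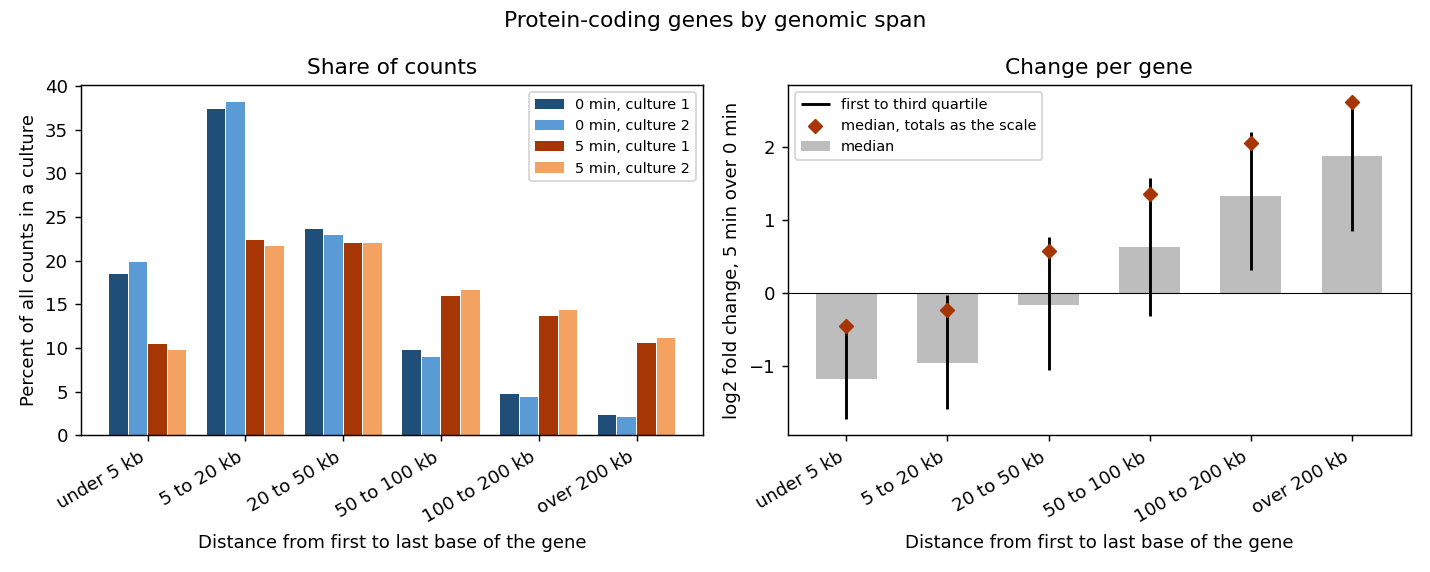
Left, percent of all counts held by protein-coding genes in 6 classes of genomic span, 1 bar per culture. Right, median log2 fold change of the genes tested in each class (bars), with the interquartile range of the genes (lines) and the median with total counts as the scale (diamonds), rising from -1.18 under 5 kb to 1.88 over 200 kb.

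The part of the span outside the spliced transcript went with the change almost as closely as span, at a Spearman correlation of 0.547. The correlation was 0.471 for the length of the spliced transcript, 0.449 for the number of uridines in it, 0.368 for the number of exons, 0.113 for the percent of uridines and -0.178 for the mean level over both times, which itself contains the measured change. The medians went from -1.34 for transcripts under 1000 nt to 1.37 for those over 8000 nt. By exon number they were not in order at the low end, with -0.46 for 1 exon, -0.86 for 3 to 4 and 1.61 for more than 32. By percent of uridines, the base that 4-thiouracil replaces, they lay between -0.43 and 0.37.

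Span kept its order within most classes of spliced length. Among transcripts of 2000 to 4000 nt the median went from -0.98 under 5 kb through -0.77, -0.21, 0.40 and 0.85 to 1.69 over 200 kb. Among those of 4000 to 8000 nt it went from -0.33 at 5 to 20 kb to 2.04 over 200 kb, with 0.43 in the 20 genes under 5 kb standing out of the order. Transcripts under 1000 nt had -1.32, -1.45 and -1.31 in the 3 shortest classes of span, where they did not follow it. Within classes of level, genes of 10 to 50 TMM CPM went from -1.0 under 5 kb to 1.61 over 200 kb, and genes of 200 to 1000 TMM CPM from -1.64 to 2.42. Over 1000 TMM CPM 168 of 170 genes fell and 0 rose, with medians of -1.70, -1.84 and -1.56 in the 3 shortest classes of span.

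**Figure D4:**
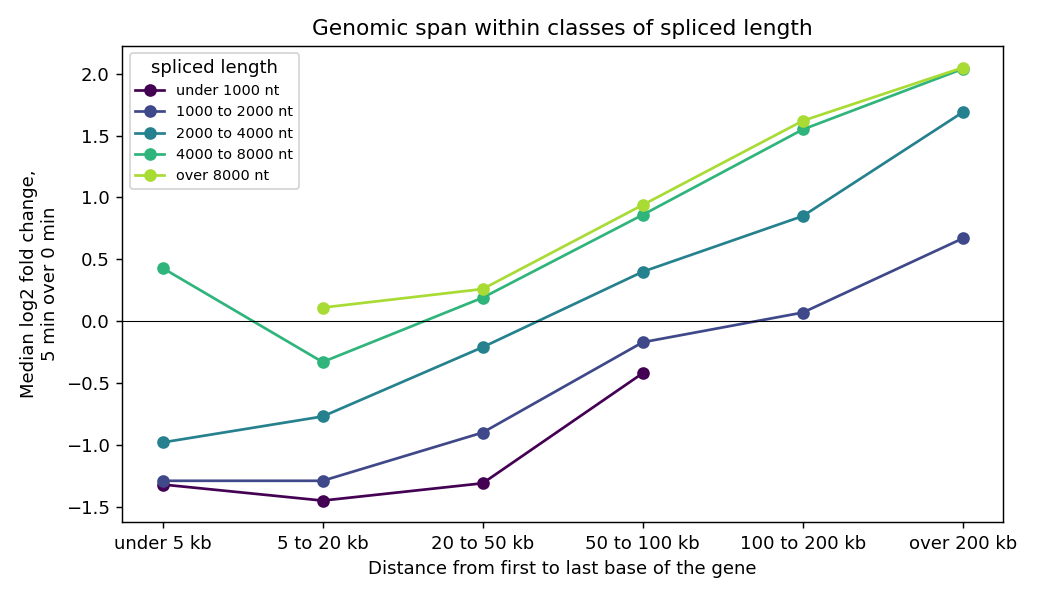
Median log2 fold change of protein-coding genes by genomic span, with 1 line per class of spliced transcript length (classes with at least 20 genes). Lines rise with span in each class of 1000 nt or more except at 4000 to 8000 nt under 5 kb, and at 2000 to 4000 nt the median goes from -0.98 to 1.69.

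Single genes stood outside the trend with span. MED27, a subunit of the Mediator complex, spans 219.8 kb and had TMM CPM of 138 and 198 at 0 min against 47.2 and 20.5 at 5 min, a fall of 2.38 (SE 0.31, adjusted p = 3.96e-08 in edgeR). MRPS22, of the mitochondrial ribosome, spans 351 kb and fell by 2.26, and LIPA, the lysosomal acid lipase, spans 201 kb and fell by 2.09. PRCP, a lysosomal carboxypeptidase of 147 kb, went from 201 and 198 to 28.3 and 34.6 TMM CPM, a fall of 2.64. These are the span from the outermost annotated bases, and a shorter transcript may be the one that was counted.

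In the other direction HNRNPL, an RNA-binding protein gene of 16 kb, had TMM CPM of 18.1 and 6.18 at 0 min and 106 and 131 at 5 min, a rise of 3.21 (SE 0.33, adjusted p = 6.20e-10 in edgeR). Under 5 kb the highest value among genes past the test with at least 20 TMM CPM was that of DUSP1, an immediate-early phosphatase gene, at 1.44, with 14.5 and 17 against 40.1 and 44.5. With the second cDNA preparation alone it was 0.90 and did not pass (adjusted p = 0.132 in edgeR). PHC3, a Polycomb protein gene of 95.0 kb, followed the trend, since its class of 50 to 100 kb had a median of 0.63. It went from 13.3 and 7.72 to 146 and 177, a rise of 3.90.

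The lowest values within the shorter classes belonged to a mixed group. RBM3, a cold-inducible RNA-binding protein, went from 1171 and 1424 TMM CPM to 152 and 138, a fall of 3.16 (SE 0.19, adjusted p = 2.41e-14 in edgeR). SLC50A1, a sugar transporter, fell by 3.78, and AHCY, which removes the product of methylation reactions, by 2.78. EIF3I, a subunit of translation initiation factor 3, had TMM CPM of 1638 and 1531 against 90.9 and 96.8, a fall of 4.07 (SE 0.23, adjusted p = 2.94e-15 in edgeR). EIF3E, another subunit of that factor, fell by 1.19.

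Most genes of the housekeeping complexes fell, while 26% of all genes tested fell and 28.7% rose. Of 72 mitochondrial ribosomal protein genes 63 fell and 2 rose (median -1.42), and of 73 nuclear genes for respiratory chain subunits 66 fell and 1 rose (median -1.44). Proteasome subunits, which form the main protease for ubiquitinated proteins, fell in 28 of 32 cases and rose in 0 (median -1.80). All 8 genes of the TRiC chaperonin, which folds actin and tubulin, fell (median -1.83), from 0.660% and 0.694% of the counts to 0.313% and 0.318%. CCT4, a subunit of this chaperonin, fell least, by 0.49, and was at 0.25 with total counts as the scale and at 0.06 with the second cDNA preparation alone. It also missed the threshold without either 0 min culture or without culture 2 at 5 min, with adjusted p of 0.0674, 0.0768 and 0.221 in edgeR. Of 13 tubulin genes 10 fell and 0 rose, and the list went from 0.945% and 0.940% to 0.331% and 0.328%. Fewer calls remained with total counts as the scale, where 43 mitochondrial ribosomal, 52 respiratory chain, 23 proteasome, 7 TRiC and 7 tubulin genes fell. On that scale 3, 2, 2, 0 and 0 rose in the same order, beside 13.9% of all genes that fell and 42.7% that rose. The shares of these 5 lists of complexes did not overlap between the times, but the lists were drawn up with earlier results of these data known and are no independent support.

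Named members show the same range. TUBA1B, an alpha tubulin, had TMM CPM of 6034 and 6549 at 0 min and 1179 and 1204 at 5 min, and PSMA4, of the proteasome core, 2242 and 2212 against 393 and 541. Both fell, by 2.40 and 2.25. Of the mitochondrial import genes TOMM and TIMM 14 of 19 fell and 1 rose, beside 26% and 28.7% of all genes. TOMM22, the central receptor of the outer membrane, fell by 2.65, while TOMM70A, a receptor for carrier proteins, rose by 1.97, from 39.9 and 69.5 TMM CPM to 210 and 211.

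Heat shock proteins divided more evenly, with 25 falling (48.1%) and 11 rising (21.2%) of 52 (median -1.0), beside 26% and 28.7% of all genes. HSPA8, a constitutive chaperone, went from 3674 and 3776 TMM CPM to 512 and 439, a fall of 2.97 (SE 0.21, adjusted p = 2.05e-13 in edgeR), and HSP90AA1, a chaperone of kinases and receptors, fell by 1.95. DNAJC1, a membrane co-chaperone gene of 247 kb, rose by 3.19. The 11 that rose had a median span of 65.6 kb and the 24 with a span among those that fell 16.5 kb.

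Genes of RNA processing were split as well. Of all genes tested 28.7% rose and 26% fell. Sm and LSm proteins, the rings around spliceosomal RNAs, fell in 19 of 30 cases and rose in 2 (median -1.29). Of 20 hnRNP genes 9 fell and 5 rose, and their median of -0.57 became 0.17 with total counts as the scale. HNRNPA2B1 and HNRNPH1, which regulate splicing, fell by 1.59 and 2.11. Of 12 SR splicing factors 3 rose and 3 fell, 25% each and near the shares of all genes. SRSF3 fell by 2.01, from 1415 and 1685 TMM CPM to 371 and 397, and SRSF4 rose by 2.08, from 65.3 and 57.1 to 249 and 269. The RNA helicases of the DEAD and DEAH families rose in 15 (32.6%) and fell in 14 (30.4%) of 46 cases, near the shares of all genes. Their median of -0.16 was 0.57 with total counts as the scale. Nuclear pore genes rose in 10 (34.5%) and fell in 7 (24.1%) of 29 cases, also near those shares. SEC13, a coat protein shared with secretory vesicles, fell by 2.28 while NUP210, a pore membrane protein, rose by 3.30.

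**Figure D5:**
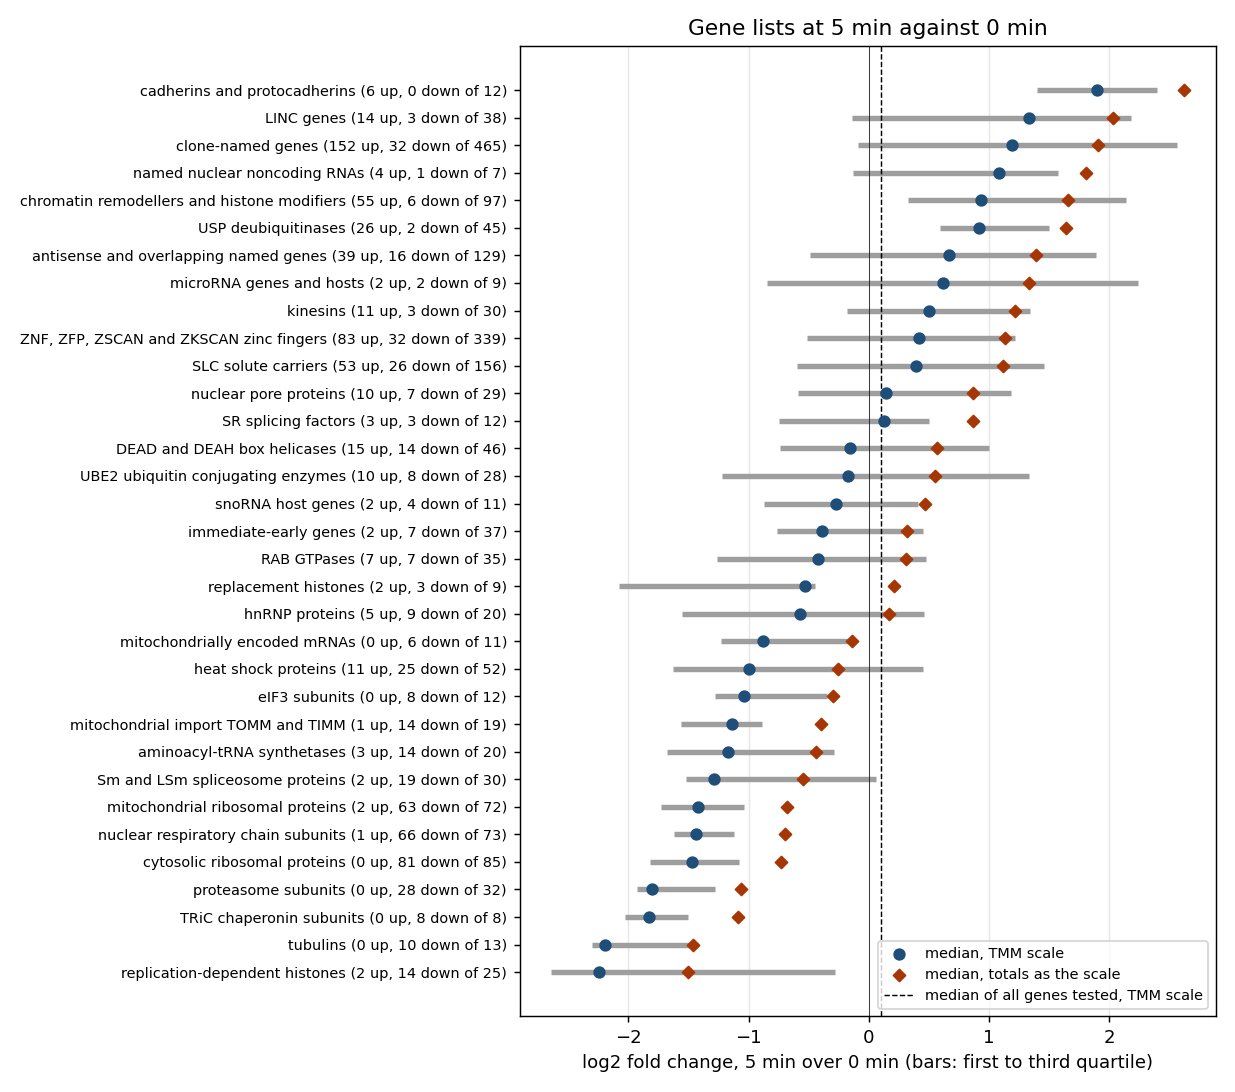
Median log2 fold change of the gene lists reported here with at least 7 genes tested (circles), the interquartile range of their genes (bars) and the median with total counts as the scale (diamonds), with the genes that rose (up) and fell (down) in brackets. Lists run from replication-dependent histones at -2.24 to cadherins and protocadherins at 1.90, and the diamonds lie to the right of the circles throughout.

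Several other lists had more genes that rose than fell. Of 97 chromatin remodellers and histone modifiers 55 rose and 6 fell, beside 28.7% and 26% of all genes, and the list went from 0.319% and 0.285% of the counts to 1.30% and 1.34%. CHD9, a chromodomain helicase, had TMM CPM of 189.8 and 117 at 0 min and 767 and 731 at 5 min. It rose by 2.27 (SE 0.21, adjusted p = 5.14e-11 in edgeR). Of 45 USP genes, which encode proteases that remove ubiquitin, 26 rose and 2 fell, and USP32 of 243 kb rose by 3.29, while USP11 of 15.6 kb fell by 1.37.

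Cadherins and protocadherins, which hold cells together, rose in 6 of 12 cases and fell in 0 (median 1.90), beside 28.7% and 26% of all genes. PCDH7, a protocadherin gene of 426 kb, went from 143 and 111 to 589 and 601, a rise of 2.22 (SE 0.20, adjusted p = 2.35e-11 in edgeR), and PCDH10, of the same family, had 18.1 and 20.1 against 20.1 and 10.6, which overlap.

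Kinesins, motors that walk along microtubules, rose in 11 (36.7%) and fell in 3 (10%) of 30 cases, beside 28.7% and 26% of all genes. KIF5B, the heavy chain of conventional kinesin, rose by 1.42 and KIF13A, an endosome motor of 228 kb, by 3.45. Zinc finger genes rose in 83 and fell in 32 of 339 cases, close to the background of 28.7% for genes that rose and below the 26% for genes that fell. ZNF821 rose by 3.30, and ZNF24, which represses transcription, fell by 0.76, a value that was -0.03 with total counts as the scale. Solute carriers rose in 53 (34%) and fell in 26 (16.7%) of 156 cases. SLC2A13, a transporter of myo-inositol with a span of 351 kb, rose by 3.13, and SLC25A5, the mitochondrial exchanger of ADP and ATP, spans 2.92 kb and fell by 2.21.

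In 2 lists genes that rose and fell were near equal in number, as over all genes tested, where 28.7% rose and 26% fell. Ubiquitin conjugating enzymes of the UBE2 family rose in 10 (35.7%) and fell in 8 (28.6%) of 28 cases. RAB GTPases, the address labels of membrane traffic, rose in 7 and fell in 7 of 35 cases, 20% each. The medians of these lists, -0.17 and -0.42, became 0.55 and 0.31 with total counts as the scale. UBE2N, which builds lysine-linked chains in DNA repair and immune signalling, fell by 2.73, from 900.4 and 837 TMM CPM to 111 and 148. RAB13, of tight junctions, spans 4.74 kb and fell by 2.15, and RAB12, an endosomal GTPase of 29.9 kb, rose by 3.13.

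Aminoacyl-tRNA synthetases, which charge tRNAs, fell in 14 and rose in 3 of 20 cases (median -1.17), beside 26% and 28.7% of all genes. KARS, the lysyl enzyme, fell by 1.65 and WARS, the tryptophanyl enzyme, by 2.04. Of 12 subunits of initiation factor 3, 8 fell and 0 rose. Of 9 replacement histones, which enter chromatin outside S phase, 3 fell and 2 rose, with a median of -0.53 that was 0.21 with total counts as the scale. H2AFZ, a variant of H2A, went from 4549 and 5233 TMM CPM to 1277 and 1041, and H3F3A, a variant of H3, from 3014 and 3006 to 570 and 636. They fell by 2.08 and 2.32.

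Across 23 lists with at least 2 genes that rose and 2 that fell, those that rose had the longer median span in 22. Over all genes tested the medians were 95.0 kb for those that rose and 17.2 kb for those that fell, so the lists repeat that difference. Some medians rest on few genes, such as 2 that rose among mitochondrial ribosomal proteins and 2 among Sm and LSm proteins. The exception was the clone-named genes, of which spans were known for 11 that rose and 2 that fell. Among solute carriers the medians were 82.0 kb for genes that rose and 10.9 kb for those that fell, among UBE2 genes 99.7 and 25 kb, and among kinesins 150.2 and 55.4 kb. Among hnRNP genes they were close, at 22 and 20.6 kb.

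Noncoding RNAs differed by length in the same direction. Long noncoding RNAs under 20 kb held 0.541% and 0.493% of the counts at 0 min and 0.602% and 0.508% at 5 min, which overlap. Those of 20 to 100 kb went from 0.242% and 0.227% to 0.686% and 0.665%, and without the most abundant entry of that class from 0.112% and 0.103% to 0.283% and 0.324%. Those over 100 kb went from 0.0978% and 0.0819% to 0.336% and 0.358%. The medians of the 3 classes were 0.55, 1.01 and 1.5. MALAT1, an abundant RNA of nuclear speckles with a span of 8.83 kb, fell by 1.22 (SE 0.19, adjusted p = 1.88e-06 in edgeR), with TMM CPM of 5219 and 4875 against 2431 and 1899.

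KCNQ1OT1, an imprinted antisense RNA of 91.7 kb, went from 25.4 and 15.4 TMM CPM to 114 and 126, a rise of 2.52 (SE 0.30, adjusted p = 1.16e-08 in edgeR). MIR181A1HG, the host of microRNA genes, spans 129.9 kb and went from 18.1 and 17 to 190 and 172. Of 129 genes named as antisense to or overlapping another gene 39 rose (30.2%) and 16 fell (12.4%), with a median of 0.67. The part that rose is near the 28.7% of all genes tested, and the part that fell is below their 26%. Of 38 LINC genes 14 rose (36.8%) and 3 fell (7.89%), with a median of 1.33. Whether reads were counted by strand is not stated in these sources, so that reads of such genes and of the genes they overlap cannot be told apart. Of 11 hosts of small nucleolar RNAs 2 rose and 4 fell, with a median of -0.27 that was 0.47 with total counts as the scale. ZFAS1 rose by 0.95, and SNHG10 fell by 2.72. RMRP, the RNA of a ribonuclease that acts on mitochondrial and ribosomal RNA, had 165 and 144 counts at 0 min against 8 and 0 at 5 min, and fell (adjusted p = 7.40e-11 in edgeR).

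Few immediate-early genes, which growth factors and stress switch on within minutes, passed the test in either direction. Of 37 tested 2 rose and 7 fell, beside 28.7% and 26% of all genes, and 28 did not pass the test. Their median was -0.39 on the TMM scale and 0.32 with total counts as the scale. Their summed share of the counts was 0.108% and 0.118% at 0 min and 0.172% and 0.163% at 5 min, which do not overlap. ID2, an inhibitor of helix-loop-helix factors, had TMM CPM of 561 and 607 against 524 and 578, which overlap. Its share of the counts rose without overlap, from 0.0381% and 0.0384% to 0.0572% and 0.0630%. That is a gain of 0.0218 percentage points, beside 0.0551 for the whole list.

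Some entries were counted at 1 time only. Of the 32738 entries deposited, 2660 had a count at 5 min and none at 0 min, and 958 the reverse. Clone-named genes made up 1033 of the first and 267 of the second, long noncoding RNAs 242 and 80, and protein-coding genes other than those of ribosome, histones and mitochondria 1295 and 584. Replication-dependent histones went the other way, with 2 and 8. These counts were not thinned to 1 depth, and most rest on few counts.

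By class of span 5 motifs are reported, chosen after values had been seen, and others were looked at and are not reported. The motif CCGGAAG, the core of a site of ETS factors, was searched on both strands in the 300-base entries of the 8118 protein-coding genes tested with 1. It was found in 27% of the genes under 5 kb, 25.5% at 5 to 20 kb, 25.7% at 20 to 50 kb, 18.8% at 50 to 100 kb, 15.1% at 100 to 200 kb and 9.95% over 200 kb. It stood in 28.3% of the genes that fell, 16.9% of those that rose and 21.6% of all genes tested with an entry, beside 10.7% of all 27305 entries. Of 63 mitochondrial ribosomal protein genes with an entry 39.7% held it. TATAAA did not follow the order of span, with 12.5% under 5 kb, 3.89% at 20 to 50 kb and 6.40% over 200 kb, nor did GGGCGG, which lay between 65.9% and 75.1%. CCAAT went from 44.4% under 5 kb to 30.7% over 200 kb, and CACGTG from 12% to 7.90%. MRPL51 fell by 1.74 and MRPL20 by 1.55, and they are shown because each holds it at 2 places in the 150 bases before its start (GRCh38.p14, minus strand, chr12:6493263-6493412 and chr1:1407294-1407443). MRPL20 was picked after its values were seen. Capitals mark CCGGAAG and, in MRPL51, also GGGCGG, the GC box, on either strand.
MRPL51: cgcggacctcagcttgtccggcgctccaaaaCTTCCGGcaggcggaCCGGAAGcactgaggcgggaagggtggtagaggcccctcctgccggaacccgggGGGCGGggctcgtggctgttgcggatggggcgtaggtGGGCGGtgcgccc
MRPL20: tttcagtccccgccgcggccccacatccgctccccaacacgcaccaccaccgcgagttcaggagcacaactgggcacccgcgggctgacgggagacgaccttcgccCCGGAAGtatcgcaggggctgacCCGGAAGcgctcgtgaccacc
CCAAT was found in 42.5% of the genes that fell and 35.6% of those that rose, GGGCGG in 68.7% and 73.6%, CACGTG in 11.1% and 11.4%, and TATAAA in 5.42% and 5.62%. For the cytosolic ribosomal proteins the search was void, since under 80% of them had an entry.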

How the data were processed

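The values are raw counts of reads per gene, whole numbers that the authors deposited for 32738 entries in all libraries. STAR and the build hg19 are named in the submitters' processing notes; version, gene models, counter, strand and use of molecular identifiers are not given in the sources used here. Per the labels' protocols, cells were treated by a published transient transcriptome method and cDNA was made with tagged reverse transcription as published for single cells.

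Columns were matched to samples by label, and the 4 libraries of a culture were added up, giving 776871 to 1298475 counts in the 4 cultures compared. For 4 libraries of culture 2 at 0 min the tagmentation number differs between header and labels, which changes no sum. The test was that of edgeR 4.0.16 under R 4.3.3 (quasi-likelihood F test, two-sided, TMM, filterByExpr, 1 fit over all 8 cultures of the 4 times with 4 residual degrees of freedom, Benjamini-Hochberg over 10439 genes). The SE is the ratio of the log2 fold change to the root of F. An exact permutation test of 2 cultures against 2 cannot go below p = 0.333 and was not used. On simulated counts for this comparison with 9953 genes tested, the fit called 16% of genes at a 1.5-fold change, 58% at 2-fold and 100% at 4-fold. Only 50 genes were changed at each fold, equally up and down. They were drawn above a minimum expected count, with a dispersion common to all genes. In the data 54.7% of the genes tested were called, so these rates do not give the power of the real comparison.

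Gene types, spans, exons and spliced lengths came from GENCODE 29 and promoters from RefSeq (GRCh38.p14, first listed start), both matched by symbol, since the files use another build. A type was found for 95.2% of the genes tested, and no coordinates of the files are given. Span classes were planned. Classes by exons, spliced length, uridines and level were added after the data were seen, as were the promoter motifs, of which others were looked at and are not reported.

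The genes compared, the 35 lists and the naming rule were chosen with earlier results of these data known. The result of 1 list is not reported here. Among genes past the test without overlap between the times, the rule names the 10 that lost and the 10 that gained most share. It also names the most abundant, highest and lowest member of each list (mean of at least 10 TMM CPM for the last pair). In each span class it names the 3 highest and 3 lowest genes past the test without overlap, with at least 20 TMM CPM. The text describes those among them with more than a few counts. Alternatives were other scalings, filters, DESeq2 1.42.0, each cDNA preparation, thinning, and leaving out each culture.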

Additional observations from a re-analysis of the deposited data

How the results depend on the processing

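With total counts as the scale 1448 genes fell in place of 2712 and 4461 rose. In the other alternatives the counts stayed within 1.5 times, and leaving out 1 culture gave 2619 to 2872 genes higher and 2343 to 2483 lower. The replicate numbers were not used as pairs, because the deviations of same-numbered cultures of the 2 times correlated at -0.00795. A fit with the replicate block gave 2928 genes higher and 2664 lower.

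Medians of the span classes are given here minus the median of all genes. Without a filter on low counts, which adds many genes with few counts, they were -0.62 under 5 kb, -0.58 at 5 to 20 kb, 0.00 at 20 to 50 kb, 0.56 at 50 to 100 kb and 1.68 over 200 kb, in place of -1.29, -1.06, -0.27, 0.52 and 1.78. With only the 4 cultures of 0 and 5 min they were -1.13 at 5 to 20 kb, 0.55 at 50 to 100 kb, 1.34 at 100 to 200 kb and 1.85 over 200 kb. The first cDNA preparation alone gave -1.18, -0.33, 0.50 and 1.27 for the 4 classes from 5 to 200 kb. The second alone gave -1.13 at 5 to 20 kb, 0.56 at 50 to 100 kb, 1.27 at 100 to 200 kb and 1.84 over 200 kb. Thinning gave -1.16 at 5 to 20 kb, and a minimum of 10 CPM in 2 cultures 0.51 at 50 to 100 kb. Leaving out 1 culture gave -1.39 to -1.25, -1.08 to -1.0, -0.30 to -0.27, 0.46 to 0.56, 1.17 to 1.29 and 1.74 to 1.88, from the shortest to the longest class.

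In percentage points, the change of share without 1 culture was -9.70 to -7.53 for cytosolic ribosomal proteins, 6.96 to 9.19 for other protein-coding genes, 0.691 to 0.783 for long noncoding RNAs, 0.602 to 0.651 for clone-named genes, -0.377 to -0.0857 for mitochondrially encoded mRNAs and -0.561 to -0.470 for histones. It was -0.0994 to -0.0729 for other unmatched entries, 0.00734 to 0.00833 for pseudogenes and -0.00124 to 0.00659 for small noncoding RNAs of the annotation, without RMRP. Pseudogenes gained 0.0108 with the first cDNA preparation and 0.00421 with the second, in place of 0.00784. In an alternative added after the data were seen, leaving out the most abundant entry gave -0.0647 for histones (in place of -0.515) and 0.833 for long noncoding RNAs (in place of 0.737), which gained 0.588 without the 2 most abundant.

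Of the 35 lists 21 had a median under that of all genes (19 to 22 in the alternatives), and 25 kept their side in all alternatives run. The 10 others were SR splicing factors, nuclear pore proteins, DEAD and DEAH box helicases, RAB GTPases, UBE2 enzymes, microRNA genes, small noncoding RNAs, LINC genes, solute carriers and clone-named genes. CCT4 was at 0.25 with total counts and at 0.06 with the second cDNA preparation, and ID2 was at 0.66 with total counts. RPL7 passed the test at 1.20 with total counts, at 0.79 with the first cDNA preparation and at 0.61 thinned, and MT-ND4 at 0.82 with total counts and 0.45 with the second. The cause was not tested. Classes by protein length were not run, since no protein table was given. Few counts per gene limit the low genes: a gene that did not pass the test may have changed.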
